A study of Mus musculus with 12 samples.

Results

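The genes described here are 10 members of the striated muscle contractile and calcium-storage machinery: the troponin T genes Tnnt1, Tnnt2 and Tnnt3, the troponin I genes Tnni1 and Tnni2, the troponin C genes Tnnc1 and Tnnc2, the calsequestrin genes Casq1 and Casq2, and the cardiac actin gene Actc1. They were taken by symbol from a table of 24692 gene rows, and the set was chosen by measured values: it was drawn up because the FPKM of Tnnt1 and Casq2 was high in the libraries of hair follicle dermal stem cells. The values of the members in dermal stem cells are therefore given as a description, and p-values of members are reported only between the other 3 populations. Counts of members passing in contrasts with dermal stem cells are listed as a description and not as a test. All 10 members had a row, and 8 of the 10 passed the filter on low values, which asked for at least 1 FPKM (RNA-seq fragments assigned to a gene, divided by transcript length and by the size of the library) in at least 3 libraries. Casq1 and Actc1 did not pass it.

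RNA was sequenced from 4 sorted cell populations of adult male mouse back skin, from mice carrying the Sox2:GFP and aSMA:dsRed reporters, at postnatal days 26 to 27, when the hair follicles were in early anagen, the start of the growth phase. The populations were hair follicle dermal stem cells, dermal papilla cells, dermal sheath cells and interfollicular dermal cells, with 3 libraries each and 12 in all. All groups carried both reporters, one driven by Sox2 and the other by the smooth muscle actin promoter, and the smooth muscle actin gene Acta2 is not independent of a sort that uses its reporter. Nothing in the sources used here says whether libraries of one population came from different mice, so a p-value here refers to the spread among the libraries and not to the spread among animals.

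Troponin is the calcium switch of the striated muscle thin filament. Troponin C binds calcium, troponin I blocks the contact between actin and myosin until calcium arrives, and troponin T ties the complex to tropomyosin along the actin filament. Slow skeletal, fast skeletal and cardiac fibres each use their own gene copies, and calsequestrin is the calcium-binding protein that fills the sarcoplasmic reticulum. Smooth muscle contracts without troponin, through calmodulin and myosin light chain kinase. The dermal sheath and its stem cells wrap the lower hair follicle and are known for carrying smooth muscle actin, while striated muscle lies under the skin as the panniculus carnosus.

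The libraries held 10711 to 11810 genes at 1 FPKM or more, and 30.14 to 41.92% of the rows in each were listed at 0, which in such a table can also be a failed estimate. Absolute depth is unknown. Among cell type markers, Acta2 averaged 872 ± 26.0 FPKM in dermal stem cells, 45.4 ± 35.8 FPKM in dermal papilla, 49.3 ± 23.1 FPKM in dermal sheath and 8.70 ± 2.60 FPKM in interfollicular dermis (SD, n = 3 each). Sox2, whose promoter drives the other reporter, had 1.15, 1.17 and 1.11 FPKM in dermal stem cells, 0.88, 2.66 and 7.17 FPKM in dermal papilla, and at most 0.34 FPKM in the dermal sheath and interfollicular dermis libraries. The summed level of 8 fibroblast markers was 9364 to 11842 FPKM in dermal stem cells and 13208 to 23831 FPKM in dermal papilla, but 966 to 1919 FPKM in dermal sheath and 822 to 1551 FPKM in interfollicular dermis. The 8 keratinocyte markers summed to 600.1 to 1156 FPKM in dermal stem cells, 1080.0 to 3207 FPKM in dermal papilla, 941 to 1111 FPKM in dermal sheath and 968 to 1334 FPKM in interfollicular dermis. Within that list Krt10, of differentiated keratinocytes, averaged 361 ± 135 FPKM in dermal stem cells, 1528 ± 829 FPKM in dermal papilla, 53.4 ± 45.2 FPKM in dermal sheath and 167 ± 47.4 FPKM in interfollicular dermis, whereas the basal keratinocyte genes were higher in the last pair: Trp63 averaged 15.5 ± 5.84, 16.1 ± 8.04, 121 ± 24.2 and 89.0 ± 11.7 FPKM and Krt5 118 ± 53.3, 140.4 ± 58.6, 395 ± 24.6 and 378 ± 65.2 FPKM, in the same order (SD, n = 3 each). Acta2 in the dermal sheath libraries stood at the level of the dermal papilla libraries, not at that of the stem cells. The part of these marker levels in the results was not tested, and in bulk RNA fewer cells of a type and less RNA per cell cannot be told apart.

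Tnnt1, the slow skeletal troponin T (chr7:4504569-4515975, minus strand, mm10), had the highest level of any member in dermal stem cells. Its level was 43.8, 39.9 and 58.2 FPKM in dermal stem cell replicates 1, 2 and 4, then 0.112, 3.005 and 1.32 FPKM in dermal papilla replicates 1, 2 and 4, 0.368, 0.0656 and 0.107 FPKM in dermal sheath replicates 1, 4 and 5, and 0.0643, 0.284 and 0.0242 FPKM in interfollicular dermis replicates 1, 2 and 6. All 3 stem cell libraries were high, and the lowest of them was 13.3 times the highest of the other 9. The means were 47.3 ± 9.65 FPKM in dermal stem cells, 1.48 ± 1.45 FPKM in dermal papilla, 0.180 ± 0.164 FPKM in dermal sheath and 0.124 ± 0.140 FPKM in interfollicular dermis (SD, n = 3 each). On the log2(FPKM + 1) scale, which understates the change of low genes, the difference was 4.45 from dermal papilla, 5.35 from dermal sheath and 5.41 from interfollicular dermis (SE 0.39 each).

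Casq2, the calsequestrin of heart and slow muscle (chr3:102086415-102146514, plus strand), had the same order of populations at the top and another below it. Its level was 38.3, 34.8 and 57.8 FPKM in the dermal stem cells, 2.28, 1.88 and 0.0872 FPKM in dermal papilla, 2.16, 1.37 and 2.33 FPKM in dermal sheath, and 0.0509, 0.636 and 1.07 FPKM in interfollicular dermis, in the replicate order given for Tnnt1. The lowest stem cell library was 14.9 times the highest other library, and the means were 43.6 ± 12.4 FPKM in dermal stem cells, 1.41 ± 1.17 FPKM in dermal papilla, 1.96 ± 0.510 FPKM in dermal sheath and 0.586 ± 0.511 FPKM in interfollicular dermis (SD, n = 3 each). On the log2(FPKM + 1) scale the difference was 4.33 from dermal papilla, 3.90 from dermal sheath and 4.84 from interfollicular dermis (SE 0.41 each). Below the stem cells, the 3 other populations overlapped in part: every dermal sheath library lay above every interfollicular dermis library, and dermal papilla reached into both.

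**Figure D1:**
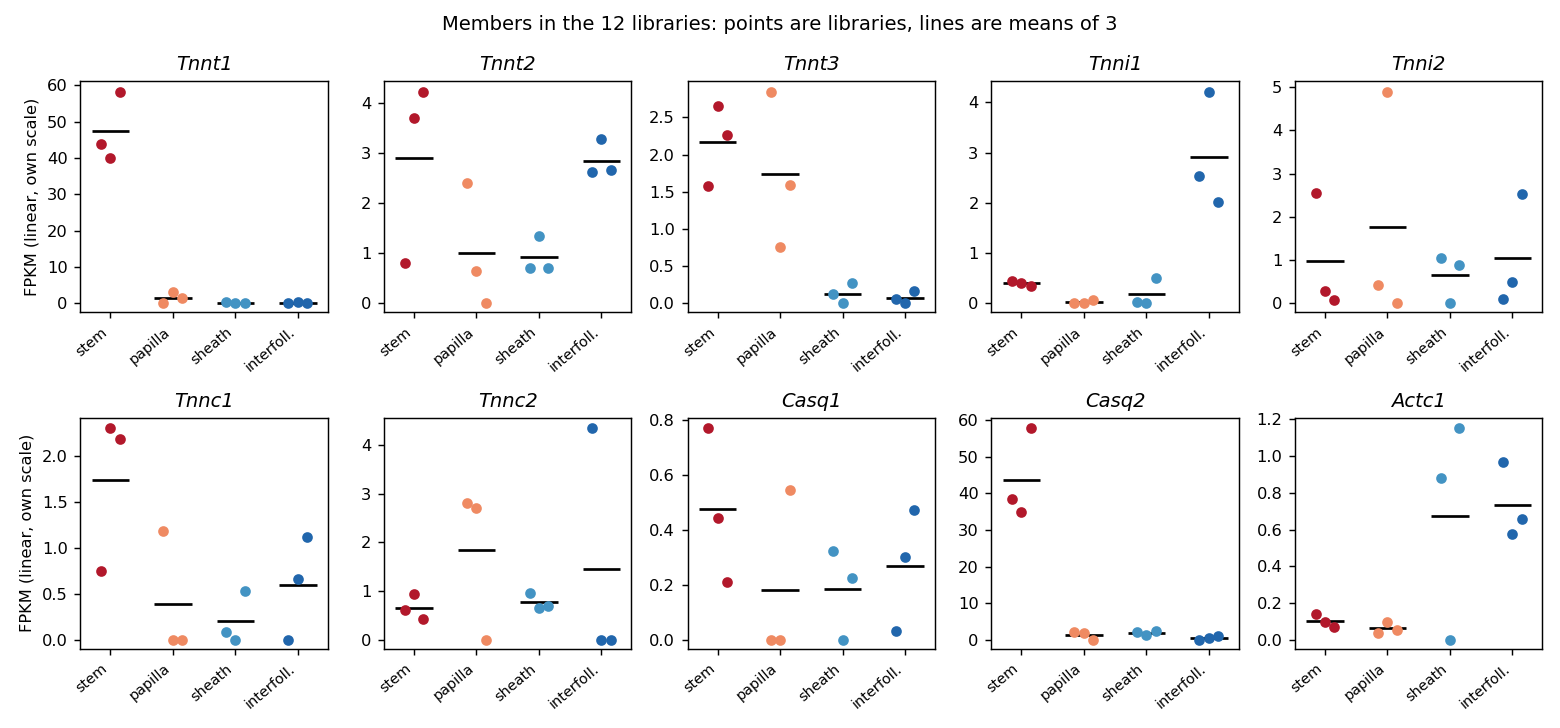
Levels of the 10 members, 1 point per library, with the 4 populations from left to right as dermal stem cells, dermal papilla, dermal sheath and interfollicular dermis. Tnnt1 and Casq2 stand at 34.8 to 58.2 FPKM in the 3 stem cell libraries and at 3.005 FPKM or less in the other 9, while no other member exceeds 4.89 FPKM in any library.

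The DNA just before the start of 3 members is shown because Tnnt1 and Casq2 carry the high values and Actc1, the actin of the set, does not. Each run is the 250 bases before the annotated start, 5′ to 3′ on the gene's strand, from RefSeq on GRCm38.p6, the patch release of mm10, and the capitals mark a TATAAA box in Tnnt1, a MEF2 site in Casq2 and a CArG box in Actc1. The Tnnt1 run is chr7:4515976-4516225 (minus strand), the Casq2 run chr3:102086165-102086414 (plus strand) and the Actc1 run chr2:114052876-114053125 (minus strand).
Tnnt1: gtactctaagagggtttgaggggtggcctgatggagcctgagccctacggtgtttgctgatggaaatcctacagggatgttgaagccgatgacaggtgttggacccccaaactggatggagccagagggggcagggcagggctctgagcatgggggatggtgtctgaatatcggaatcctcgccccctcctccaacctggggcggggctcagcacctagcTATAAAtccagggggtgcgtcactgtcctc
Casq2: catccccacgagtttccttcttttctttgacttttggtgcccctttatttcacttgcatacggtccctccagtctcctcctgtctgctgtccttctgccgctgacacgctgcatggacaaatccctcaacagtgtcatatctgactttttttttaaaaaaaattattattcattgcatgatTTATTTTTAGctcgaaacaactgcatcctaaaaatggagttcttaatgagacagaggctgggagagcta
Actc1: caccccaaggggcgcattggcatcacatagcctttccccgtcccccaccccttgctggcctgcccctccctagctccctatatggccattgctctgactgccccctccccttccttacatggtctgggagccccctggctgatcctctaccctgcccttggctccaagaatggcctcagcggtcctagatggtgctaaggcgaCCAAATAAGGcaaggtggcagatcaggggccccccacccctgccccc

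RefSeq gave a promoter for 8 of the 10 members, and both strands were searched for 5 motifs. The CArG box, bound by serum response factor, was found in Actc1 among these members, 47 to 38 bases before the start, and in 1.47% of all 32851 promoters. The MEF2 site, bound by the myocyte enhancer factors, was found in Casq2, 69 to 60 bases before the start, and in 2.92% of all promoters. TATAAA was found in Tnnt1, 30 to 25 bases before the start (12.4% of all), and the MCAT motif CATTCC in Tnnt2 and Tnnc1 (12.6% of all). The E-box CANNTG, bound by factors of the MyoD family among many others, was in 7 of the 8 members and in 66.2% of all promoters, so it was not marked. A match describes these letters only, and Tnnt1 and Casq2 shared none of the marked motifs in this window.

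The other troponin T genes were low. Tnnt2, the cardiac form (chr1:135836315-135852268), had 0.799, 3.72 and 4.24 FPKM in dermal stem cells, 2.40, 0.640 and 0 FPKM in dermal papilla, 0.716, 1.35 and 0.714 FPKM in dermal sheath, and 2.62, 3.28 and 2.67 FPKM in interfollicular dermis. Dermal stem cell replicate 1 lay with the low libraries and replicates 2 and 4 above all others, so the population overlapped each of the rest. Every dermal papilla library and every dermal sheath library was below every interfollicular dermis library. Neither difference passed the threshold: on the log2 scale it was -1.12 (SE 0.47, limma adjusted p = 0.0701) for dermal papilla minus interfollicular dermis and -1.01 (adjusted p = 0.321) for dermal sheath minus interfollicular dermis. The first passed without dermal papilla replicate 1 (-1.59, limma adjusted p = 0.017) and without dermal stem cell replicate 1 (limma adjusted p = 0.0408).

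Tnnt3, the fast skeletal troponin T (chr7:142498771-142516213), stood higher in dermal papilla than it did in either dermal sheath or interfollicular dermis, at a low level. It had 1.58, 2.65 and 2.27 FPKM in dermal stem cells, 2.85, 0.758 and 1.59 FPKM in dermal papilla, 0.123, 0 and 0.267 FPKM in dermal sheath, and 0.0634, 0 and 0.168 FPKM in interfollicular dermis. No library of the first pair of populations overlapped one of the second pair. Tnnt3 reached 1 FPKM only in the dermal stem cell libraries and in dermal papilla replicates 1 and 4. It thus entered the tests through the populations in which it is high, which ties its calls to the filter. The dermal papilla was above dermal sheath by 1.21 on the log2 scale (SE 0.30, limma adjusted p = 0.00585) and above interfollicular dermis by 1.27 (SE 0.30, adjusted p = 0.00546), and both calls held under all 18 alternatives tried. Dermal stem cells differed from dermal papilla by 0.27, from dermal sheath by 1.48 and from interfollicular dermis by 1.54 on that scale. Tnnt3 overlaps the gene Prr33, and whether the counting used strand is not given in the sources used here, so its reads and those of that gene may not be told apart.

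Tnni1, the slow skeletal troponin I (chr1:135783033-135810989), was highest in interfollicular dermis. It had 0.454, 0.402 and 0.335 FPKM in dermal stem cells, 0, 0 and 0.0704 FPKM in dermal papilla, 0.0294, 0 and 0.513 FPKM in dermal sheath, and 2.52, 4.21 and 2.01 FPKM in interfollicular dermis. All 3 interfollicular dermis libraries lay above all other libraries. Tnni1 was lower in dermal papilla than in interfollicular dermis, with a log2 difference of -1.90 (SE 0.28, limma adjusted p = 0.000256), and dermal sheath minus interfollicular dermis gave -1.72 (SE 0.28, adjusted p = 0.00721). Tnni1 reached 1 FPKM only in the 3 interfollicular dermis libraries and so entered the tests through the population in which it is high, which ties these calls to the filter. With no filter on low values the limma adjusted p was 0.000313 and 0.00807 in the same order. Its difference in dermal stem cells minus interfollicular dermis was -1.45. Tnnt1 and Tnni1, the 2 slow skeletal forms that pair in the same fibres, thus peaked in different populations.

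Tnni2, the fast skeletal troponin I (chr7:142441816-142444410), exceeded 1 FPKM in single libraries of each population. It had 2.56, 0.278 and 0.0744 FPKM in dermal stem cells, 0.416, 4.89 and 0 FPKM in dermal papilla, 1.05, 0 and 0.878 FPKM in dermal sheath, and 0.0958, 0.493 and 2.52 FPKM in interfollicular dermis. Each population held a high and a low library, and the 4 overlapped. No tested difference passed (limma adjusted p = 0.665, 0.847 and 0.933 for dermal papilla minus dermal sheath, dermal papilla minus interfollicular dermis and dermal sheath minus interfollicular dermis).

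No tested difference of the troponin C genes passed. Tnnc1, the slow and cardiac form (chr14:31208312-31211729), had 0.747, 2.31 and 2.19 FPKM in dermal stem cells, 1.19, 0 and 0 FPKM in dermal papilla, 0.0868, 0 and 0.530 FPKM in dermal sheath, and 0, 0.669 and 1.13 FPKM in interfollicular dermis. Stem cell replicates 2 and 4 were the highest libraries and replicate 1 lay within the rest. Its log2 differences were 0.13, -0.23 and -0.36 for dermal papilla minus dermal sheath, dermal papilla minus interfollicular dermis and dermal sheath minus interfollicular dermis (limma adjusted p = 0.805, 0.666 and 0.741). Tnnc2, the fast form (chr2:164777161-164779734), had 0.617, 0.937 and 0.430 FPKM in dermal stem cells, 2.81, 2.71 and 0 FPKM in dermal papilla, 0.970, 0.659 and 0.693 FPKM in dermal sheath, and 4.34, 0 and 0 FPKM in interfollicular dermis. The high values were 3 libraries, dermal papilla replicates 1 and 2 and interfollicular dermis replicate 1, beside libraries of the same populations listed at 0. The limma adjusted p-values for Tnnc2 were 0.567, 0.568 and 0.998 in the same order of contrasts.

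Casq1, the fast skeletal calsequestrin (chr1:172209894-172219895), reached 0.771 FPKM at most. It had 0.771, 0.445 and 0.212 FPKM in dermal stem cells, 0, 0 and 0.546 FPKM in dermal papilla, 0.326, 0 and 0.227 FPKM in dermal sheath, and 0.0341, 0.301 and 0.474 FPKM in interfollicular dermis, and the populations overlapped. It overlaps the gene Gm17224. Actc1, the actin of the heart and of developing skeletal muscle (chr2:114047282-114052875), was at or below 0.142 FPKM in dermal stem cells and dermal papilla. It had 0.142, 0.09996 and 0.0714 FPKM in dermal stem cells, 0.0400, 0.09994 and 0.0526 FPKM in dermal papilla, 0.878, 0 and 1.15 FPKM in dermal sheath, and 0.966, 0.575 and 0.657 FPKM in interfollicular dermis. All 3 interfollicular dermis libraries and 2 of the 3 dermal sheath libraries were above all stem cell and papilla libraries, at levels too low for a test. By mean FPKM Tnni1 and Actc1 were both highest in interfollicular dermis. The basal keratinocyte genes were high there and in dermal sheath, where Tnni1 had 0.513 FPKM at most and Actc1 had its highest library. The part of basal keratinocytes in these values was not tested. In GENCODE vM21 transcripts, 0 of the 1568 windows of 50 bases in Actc1 were shared with another gene, Acta2 included, and Casq2 also shared 0 of 2783. Tnnt1 shared 20 of 2418 such windows (0.827%) with another gene.

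Among the 8 tested members, dermal papilla minus dermal sheath gave 1 higher and 0 lower, where 49.8% of the 12774 tested genes were called, 16.4% higher and 33.4% lower. In dermal papilla minus interfollicular dermis 1 was higher and 1 lower, against 42.3% of all tested genes (13.7% higher and 28.6% lower), and in dermal sheath minus interfollicular dermis 0 were higher and 1 was lower, against 2.26% (0.939% higher and 1.32% lower). The member lower in each of these contrasts with interfollicular dermis was Tnni1, which the filter admitted through that population. The member higher in dermal papilla was Tnnt3, which the filter admitted through dermal stem cells and dermal papilla. Without dermal papilla replicate 1 the count was 2 members in dermal papilla minus dermal sheath and 4 in dermal papilla minus interfollicular dermis, since Tnnt1 then passed in both, at 1.38 and 1.45 on the log2 scale (limma adjusted p = 0.00497 and 0.00508), and Tnnt2 in the second. With all libraries Tnnt1 gave 0.89 (limma adjusted p = 0.0738) and 0.96 (adjusted p = 0.0638), while the difference of dermal sheath minus interfollicular dermis was 0.07 (adjusted p = 0.966). Casq2 gave -0.43, 0.51 and 0.94 in the contrasts papilla minus sheath, papilla minus interfollicular dermis and sheath minus interfollicular dermis, and none passed (limma adjusted p = 0.407, 0.339 and 0.297). Without dermal papilla replicate 4 the Casq2 difference of papilla minus interfollicular dermis was 1.01 and passed (limma adjusted p = 0.0332).

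For the contrasts that the choice of the members used, the same fit called 2 members higher and 0 lower in dermal stem cells minus dermal papilla (background 8.69%, of which 6.38% higher and 2.31% lower), 4 higher and 0 lower in dermal stem cells minus dermal sheath (43.9%, of which 19.6% and 24.3%), and 3 higher and 1 lower in dermal stem cells minus interfollicular dermis (37.6%, of which 17.9% and 19.7%). Tnnt1 and Casq2, whose high stem cell values led to the choice, were the 2 called against dermal papilla and were called in each of these contrasts. The counts, and the medians given next for the same contrasts, are therefore no test of the members. They describe the members and nothing is read from them. The median log2 difference of the 8 tested members was 0.72, 1.03 and 0.36 in these contrasts, in the same order, against 0.25, -0.13 and -0.14 for all tested genes. Between the other populations the median was 0.25 for dermal papilla minus dermal sheath, 0.32 for dermal papilla minus interfollicular dermis and -0.09 for dermal sheath minus interfollicular dermis, against -0.36, -0.32 and 0.05 for all tested genes.

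The members did not share one pattern over the populations. By mean FPKM, 6 of the 10 peaked in dermal stem cells (Tnnt1, Tnnt2, Tnnt3, Tnnc1, Casq1 and Casq2), Tnni2 and Tnnc2 in dermal papilla, and Tnni1 and Actc1 in interfollicular dermis. The single highest library of a member was 1 of 8 different libraries over the 10 genes. After each population's mean was removed, the correlation of log2(FPKM + 1) over the 12 libraries had a median of 0.0426 over the 45 pairs of members, and 5 pairs were above 0.5. Tnnt1 and Casq2, which are high together between populations, had a correlation of -0.0209 within populations, and Tnnt2 and Tnnc1, both cardiac forms, had 0.699. These are descriptions over libraries that share their depth and their sort. Apart from Tnnt1 and Casq2 no member exceeded 4.89 FPKM in any library. At such levels a correlation near 0 cannot tell noise from separate patterns, and none among equally low genes is given here.

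**Figure D2:**
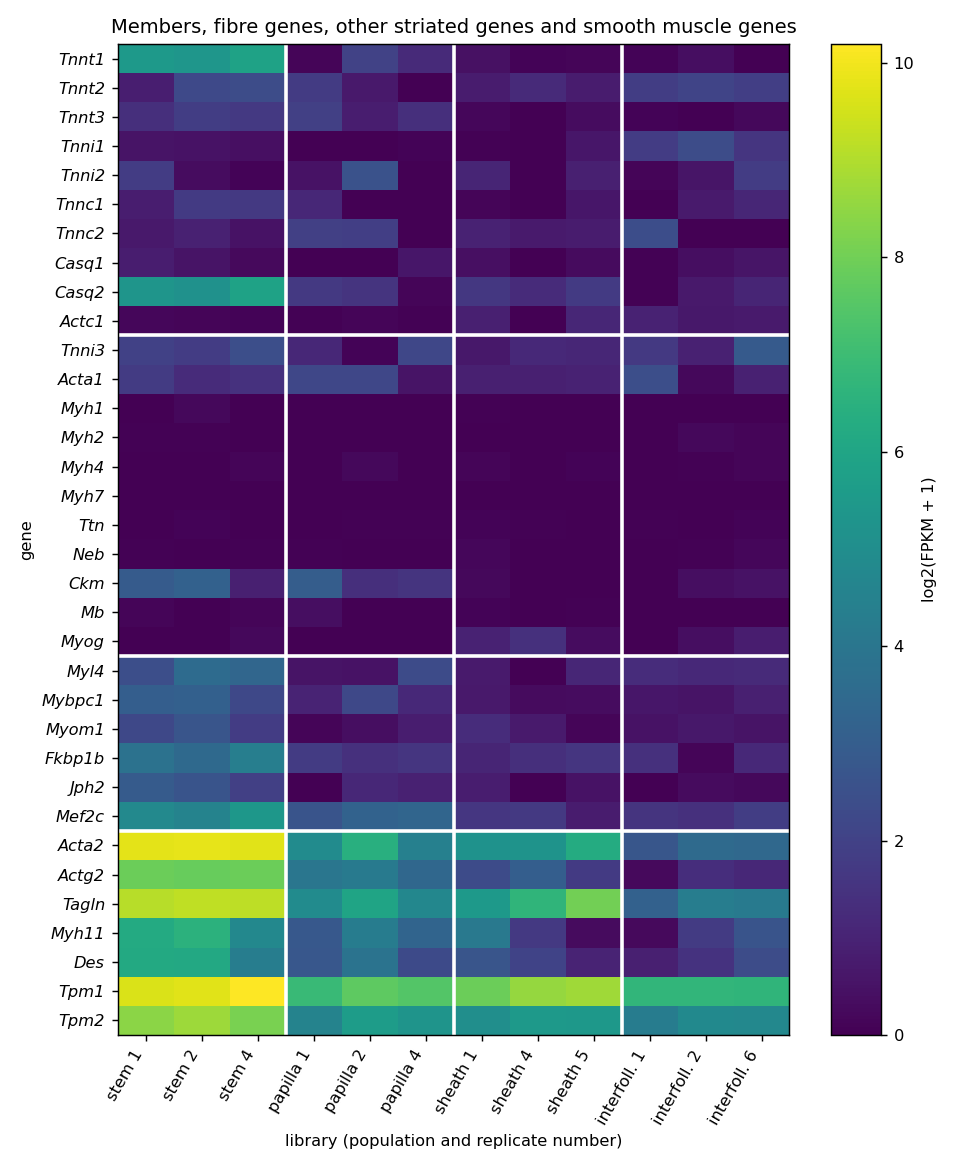
Values of log2(FPKM + 1) in the 12 libraries for genes that include the 10 members, with columns ordered as dermal stem cells, dermal papilla, dermal sheath and interfollicular dermis. Tnnt1 and Casq2 fill the 3 stem cell columns, Tnnt3 the stem cell and papilla columns, Tnni1 the interfollicular dermis columns, and Tnni2 and Tnnc2 single columns.

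The troponin T and troponin I genes lie side by side in the genome in pairs, and the neighbours did not share the pattern of Tnnt1. Tnnt1 lies 2329 bases from Tnni3, the cardiac troponin I, with 0 genes between them. Tnni3 averaged 3.27 ± 0.995 FPKM in dermal stem cells, 1.61 ± 1.77 FPKM in dermal papilla, 1.01 ± 0.363 FPKM in dermal sheath and 3.22 ± 2.92 FPKM in interfollicular dermis (SD, n = 3 each), and passed in no contrast. Tnnt2 and Tnni1 lie 25325 bases apart, and Tnnt3 and Tnni2 54360 bases apart, with 1 gene between in each case. Over the 12 libraries the correlation of log2(FPKM + 1) was 0.50 for Tnnt2 with Tnni1 and -0.11 for Tnnt3 with Tnni2. Tnnt2 was at 2.92 ± 1.85 FPKM in dermal stem cells and 2.86 ± 0.366 FPKM in interfollicular dermis (SD, n = 3 each), a log2 difference of -0.12.

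Several defining genes of the muscle fibre were at or near 0 in every library, while others were detected. Of 95 other striated muscle genes, listed as sarcomere, calcium handling, muscle metabolism and myogenic regulator genes, 54 did not reach 1 FPKM in any of the 12 libraries and 41 did, among them Acta1 (4.45 FPKM at most), Tnni3 (6.50 FPKM), Mylpf (7.58 FPKM), Ckm (7.95 FPKM) and Myl4 (10.9 FPKM). The 7 striated myosin heavy chain genes Myh1, Myh2, Myh3, Myh4, Myh6, Myh7 and Myh8, the motors of the fibre, reached at most 0.370 FPKM. Titin (Ttn) reached 0.0702 FPKM, nebulin (Neb) 0.143 FPKM, the Z-disc actinin Actn2 0.362 FPKM, myoglobin (Mb) 0.287 FPKM and the calcium release channel Ryr1 0.743 FPKM, while the ventricular light chain Myl2 was listed at 0 in all 12. The muscle stem cell factor Pax7 reached 0.230 FPKM and the muscle-determining factor Myod1 0.280 FPKM. Tnnt1 and Casq2 were therefore high in 3 libraries in which the striated myosin heavy chains, titin and nebulin were at or near 0, and in which Ckm and Myl4 were detected.

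Several skeletal muscle genes were detected above 1 FPKM, each with its own pattern over the libraries. Acta1, the skeletal muscle actin, was highest in interfollicular dermis replicate 1 (4.45 FPKM) and dermal papilla replicates 1 and 2 (3.53 and 3.47 FPKM), the 3 libraries in which Tnnc2 was highest. It had 2.37, 1.38 and 1.78 FPKM in the dermal stem cells. The correlation of Tnnc2 with Acta1 over the 12 libraries was 0.879, a pair picked after its values were seen, and Tnnc2 was the only member of the 10 above 0.5 with Acta1. The parvalbumin gene Pvalb, a calcium buffer of fast fibres, was highest in dermal papilla replicate 2 (5.69 FPKM), as was Tnni2. The fast light chain Mylpf had 1.78, 0.245 and 0.592 FPKM in dermal stem cells, 7.58, 1.20 and 0 FPKM in dermal papilla, 1.78, 3.63 and 3.39 FPKM in dermal sheath, and 3.98, 4.80 and 3.66 FPKM in interfollicular dermis. It was thus present in all libraries of the last pair of populations, beside 1 high papilla library. The creatine kinase gene Ckm had 6.52, 7.95 and 0.84 FPKM in dermal stem cells, 6.99, 1.62 and 1.86 FPKM in dermal papilla, and at most 0.42 FPKM in dermal sheath and interfollicular dermis. Whether such values come from muscle fibres carried through the sort was not tested. The sum of the 8 members other than Tnnt1 and Casq2 was 7.67 to 10.8 FPKM in dermal stem cells, 2.26 to 9.70 FPKM in dermal papilla, 2.01 to 4.97 FPKM in dermal sheath and 9.53 to 10.6 FPKM in interfollicular dermis.

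**Figure D3:**
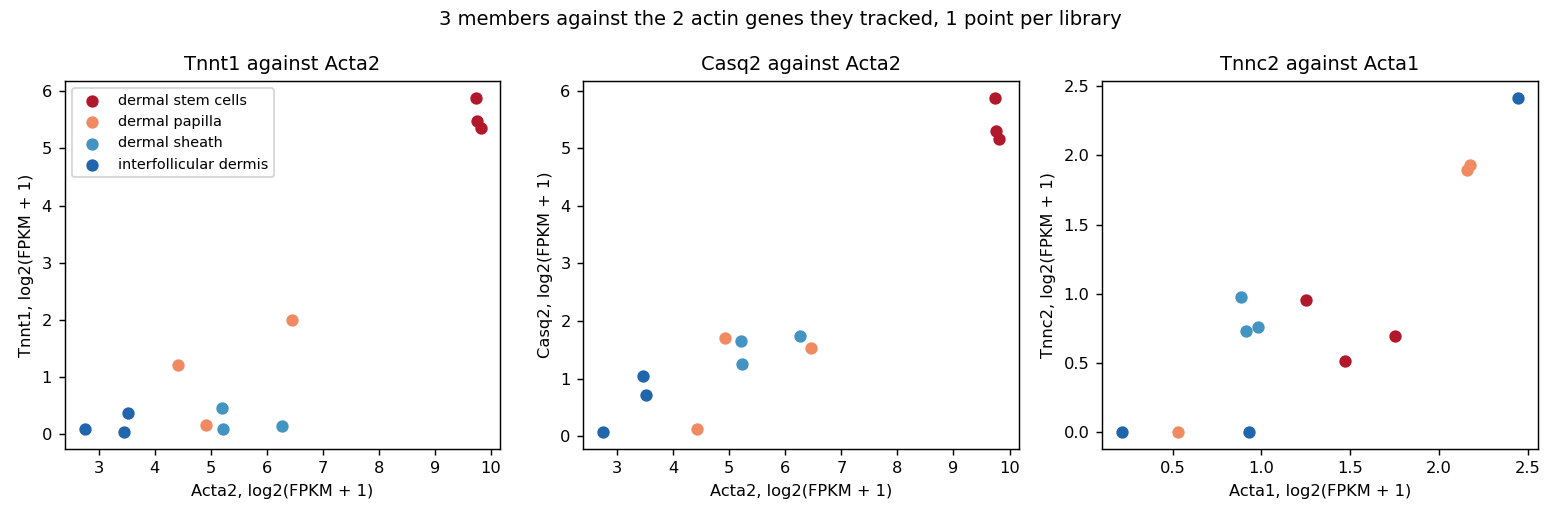
Values of log2(FPKM + 1) for Tnnt1 and Casq2 against the smooth muscle actin Acta2 and for Tnnc2 against the skeletal actin Acta1, 1 point per library, coloured by population. For Tnnt1 and Casq2 the 3 stem cell libraries form a group apart, whereas for Tnnc2 the high points are dermal papilla replicates 1 and 2 and interfollicular dermis replicate 1.

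Some other striated muscle genes were higher in dermal stem cells, at levels mostly below those of Tnnt1 and Casq2. Of the 95, 29 passed the filter on low values. In dermal stem cells minus dermal papilla 11 of the 29 were higher and 0 were lower by limma with Benjamini-Hochberg adjustment, where 6.38% of all tested genes were higher and 2.31% lower. The median log2 difference of the 29 was 0.58, against 0.25 for all tested genes. In dermal stem cells minus dermal sheath 14 were higher and 1 lower (19.6% and 24.3% of all tested genes; median 0.93 against -0.13), and in dermal stem cells minus interfollicular dermis 13 were higher and 1 lower (17.9% and 19.7% of all tested genes; median 0.90 against -0.14). The count against dermal papilla was 6 without dermal stem cell replicate 1 and 7 without replicate 2. By list it was made up of 5 of 9 tested sarcomere genes, 2 of 10 calcium handling genes, 2 of 5 metabolism genes and 2 of 5 myogenic regulators.

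The sarcomere genes that passed against dermal papilla included Myl4, an atrial and embryonic myosin light chain, with 8.27 ± 3.38 FPKM in dermal stem cells and 1.60 ± 2.05 FPKM in dermal papilla (SD, n = 3 each). Its log2 difference was 2.03 (SE 0.48, limma adjusted p = 0.0222), a call that 7 of the 18 alternatives ended, among them leaving out papilla replicate 1 or 2 (adjusted p = 0.0762 and 0.0695) or stem cell replicate 2 or 4 (0.0863 and 0.0673). Myom1, a protein of the M-band, averaged 3.88 ± 1.44 FPKM in dermal stem cells and 0.381 ± 0.333 FPKM in dermal papilla (SD, n = 3 each), a difference of 1.81 (SE 0.34, limma adjusted p = 0.00701) that held under all 18. Mybpc1, the slow myosin-binding protein C, differed by 1.32 (limma adjusted p = 0.0389), which 12 of the 18 ended (adjusted p = 0.0526 to 0.139). Against dermal sheath Myl4 and Mybpc1 were higher by 2.53 and 2.34, and against interfollicular dermis by 1.90 and 2.10.

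Among calcium handling genes, Fkbp1b, which encodes a protein bound to the ryanodine receptor, averaged 14.4 ± 4.62 FPKM in dermal stem cells, 2.002 ± 0.407 FPKM in dermal papilla, 1.57 ± 0.461 FPKM in dermal sheath and 0.992 ± 0.799 FPKM in interfollicular dermis (SD, n = 3 each). It was higher in dermal stem cells by 2.32, 2.56 and 3.002 on the log2 scale against the other 3 in that order (limma adjusted p = 0.00193 against dermal papilla), and the first call held under all 18 alternatives. Junctophilin 2 (Jph2), which ties the reticulum to the cell membrane, was higher than in dermal papilla by 1.81 (SE 0.37, limma adjusted p = 0.00993, but 0.0505 without stem cell replicate 1, 0.0625 in a fit of the compared libraries alone and 0.0913 with a pseudocount of 0.1) and than in interfollicular dermis by 2.35. Ryr1, the skeletal ryanodine receptor, stayed under 1 FPKM, as did triadin (Trdn, 0.212 FPKM at most), a protein that anchors calsequestrin to that channel. They were 2 of the 10 among 22 calcium handling genes that did not reach 1 FPKM in any library. Others of the list were present in all libraries, such as Asph at 11.9 to 18.0 FPKM and Atp2a2 at 36.7 to 92.9 FPKM.

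Of the metabolism genes, the adenylate kinase Ak1 averaged 32.2 ± 1.61 FPKM in dermal stem cells and 10.1 ± 3.92 FPKM in dermal papilla (SD, n = 3 each), a difference of 1.65 (limma adjusted p = 0.0148) that was lost without dermal stem cell replicate 1 (adjusted p = 0.0572). The muscle glycogen phosphorylase Pygm differed by 1.33 (SE 0.28, limma adjusted p = 0.0115). Among regulators, Mef2c, a transcription factor of muscle and several other lineages, averaged 30.0 ± 9.52 FPKM in dermal stem cells, 7.58 ± 2.01 FPKM in dermal papilla, 1.67 ± 0.837 FPKM in dermal sheath and 2.07 ± 0.494 FPKM in interfollicular dermis (SD, n = 3 each). It was higher in dermal stem cells by 1.84 against dermal papilla (SE 0.32, limma adjusted p = 0.00442) and by 3.55 against dermal sheath (adjusted p = 6.19e-06). Tbx1, a T-box factor of pharyngeal muscle that is also used in hair follicles, was higher in dermal stem cells than in dermal papilla by 1.73 (limma adjusted p = 0.0136, but 0.0601 without stem cell replicate 2 and 0.0514 in a fit of the compared libraries alone) but lower than in dermal sheath, with a difference of -1.76. Pax3, a factor of muscle and melanocyte precursors, was lower in dermal stem cells than in interfollicular dermis, with a difference of -1.60, and the 8 melanocyte markers summed to 17.0 to 91.8 FPKM in dermal stem cells and 166 to 951 FPKM in interfollicular dermis.

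The 29 genes were also compared among the other populations. In dermal papilla minus dermal sheath 8 were higher and 1 lower, against 16.4% and 33.4% of all tested genes. In dermal papilla minus interfollicular dermis 6 were higher and 1 lower (13.7% and 28.6% of all tested genes), and in dermal sheath minus interfollicular dermis 1 was higher and 1 lower (0.939% and 1.32%). Those that passed in both papilla contrasts included the calcium channel subunit Cacna2d1 (1.68 and 1.70 on the log2 scale against dermal sheath and interfollicular dermis), Ckm (1.89 and 1.67) and Mef2c (1.71 and 1.46), all higher in dermal papilla, and Tbx1 (-3.49, limma adjusted p = 1.82e-05, and -1.79), lower there. Without papilla replicate 1 Ckm no longer passed in either contrast (limma adjusted p = 0.0621 and 0.121), nor against interfollicular dermis without interfollicular dermis replicate 1 or 2 (0.0877 and 0.0634). With the replicate number as a block, 0 of the 29 passed in dermal sheath minus interfollicular dermis.

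The smooth muscle genes were high in the same 3 libraries as Tnnt1 and Casq2. All 22 smooth muscle genes passed the filter, and 18, 19 and 20 of them were higher in dermal stem cells against dermal papilla, dermal sheath and interfollicular dermis, where 6.38%, 19.6% and 17.9% of all tested genes were higher. Their median log2 differences were 2.30, 2.39 and 3.41, against 0.25, -0.13 and -0.14 for all tested genes. Their summed level was 4366 to 4719 FPKM in dermal stem cells, 435 to 798 FPKM in dermal papilla, 707 to 1193 FPKM in dermal sheath and 260.5 to 347 FPKM in interfollicular dermis. The counts and sums include Acta2, which is not independent of a sort that uses its reporter and was called higher in each of these contrasts. Tropomyosin, the partner that troponin T holds, comes from genes used in smooth and striated muscle alike. Tpm1 averaged 938 ± 205 FPKM in dermal stem cells, 165 ± 42.0 FPKM in dermal papilla, 349.6 ± 98.0 FPKM in dermal sheath and 103 ± 3.08 FPKM in interfollicular dermis, and Tpm2 averaged 347 ± 68.8, 36.2 ± 12.998, 39.3 ± 6.59 and 23.8 ± 4.81 FPKM in the same order (SD, n = 3 each). The other tropomyosin genes differed less. Tpm4 averaged 31.2 ± 2.66, 20.9 ± 2.74, 19.0 ± 6.74 and 15.9 ± 3.78 FPKM in that order. Tpm3 averaged 5.75 ± 2.27, 4.33 ± 1.87, 2.46 ± 1.45 and 2.80 ± 1.81 FPKM, and its stem cell libraries overlapped those of each other population (SD, n = 3 each).

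**Figure D4:**
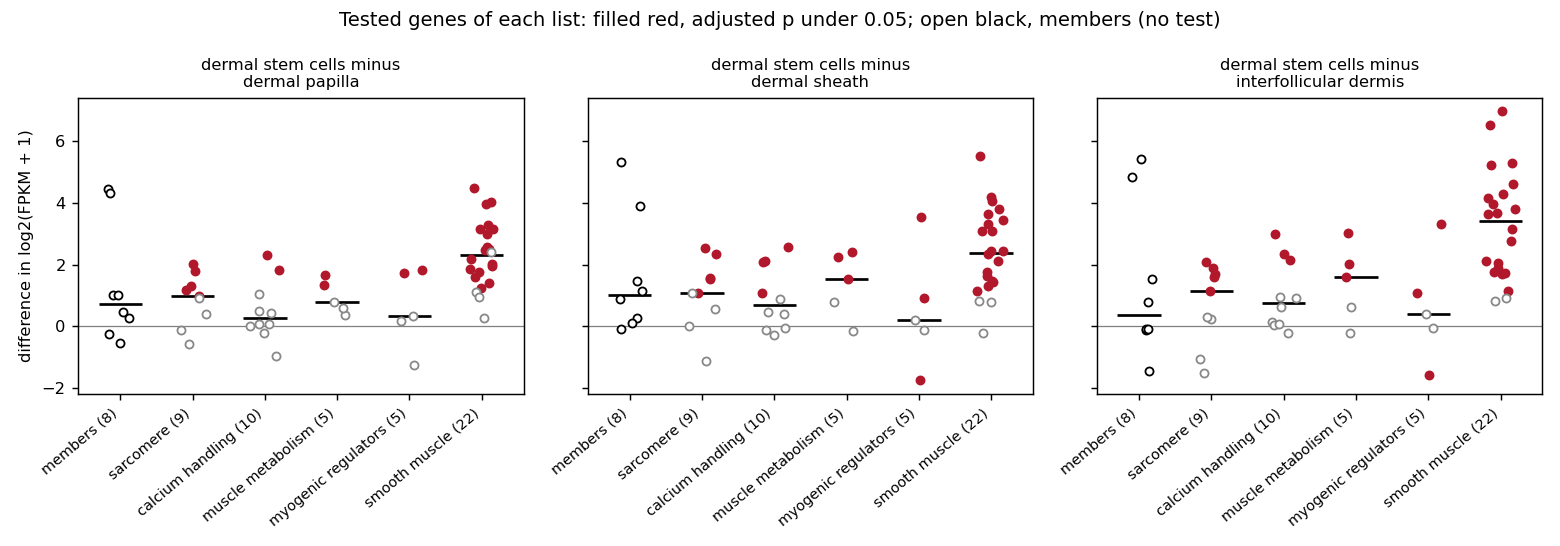
Differences in log2(FPKM + 1), a point for each tested gene, for the members, the other striated muscle lists and the smooth muscle genes. They are taken as dermal stem cells minus dermal papilla, dermal sheath or interfollicular dermis. The smooth muscle sum, which is not plotted, is 4366 to 4719 FPKM in the stem cell libraries and at most 1193 FPKM in the rest. The sum of other striated genes is 257 to 291 FPKM in the stem cell libraries and 122 to 200.3 FPKM in the rest. Within it the sarcomere genes sum to 30.8 to 37.6 FPKM in the stem cell libraries and 8.71 to 24.3 FPKM in the rest. The calcium pump gene Atp2a2 alone has 45.5 to 77.2 FPKM in the stem cell libraries and up to 92.9 FPKM in dermal sheath.

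Within the 3 stem cell libraries, Tnnt1 and Casq2 were both highest in replicate 4. Of the 22 smooth muscle genes, 4 were highest there (Tpm1, Cald1, Vcl and Itga8) and 16 were lowest there, and the sum of the list was 4366, 4719 and 4542 FPKM in replicates 1, 2 and 4. In replicate 4 the smooth muscle myosin Myh11 had 26.4 FPKM, against 73.6 and 92.8 FPKM in replicates 1 and 2, and desmin (Des), the intermediate filament of muscle, had 19.3 FPKM, against 72.3 and 69.7 FPKM. The summed level of 6 immune markers was 42.2 FPKM in replicate 4, and 1066 and 620 FPKM in replicates 1 and 2. With 3 libraries these orders carry no test.

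The genes most alike Tnnt1 over the 12 libraries, by Pearson correlation of log2(FPKM + 1) among 9357 genes with a mean of at least 5 FPKM in some population, were Nhsl2 (0.987), the actin-regulating ankyrin protein gene Kank4 (0.983), the extracellular protease gene Adamts6 (0.981), Igfbp4, which binds insulin-like growth factors (0.980), and Phldb2 (0.979). For Casq2 they were Fam101b (0.989), Vav2 (0.976), Lrrc15 (0.971), Palm3 (0.969) and the Wnt ligand gene Wnt9a (0.966). Such values rest on the gap between the stem cell libraries and the other 9, and the 2 lists share no gene. Igfbp4 averaged 1033 ± 221 FPKM in dermal stem cells and 88.5 ± 32.0 FPKM in dermal papilla, and Lrrc15, a membrane protein of activated fibroblasts, averaged 305 ± 135 FPKM in dermal stem cells and 9.20 ± 5.80 FPKM in dermal papilla (SD, n = 3 each). For Actc1 they were Rogdi (0.952), Tfap2e (0.898), Nomo1 (0.890), Nhlrc2 (0.889) and 0610030E20Rik (0.887).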

How the data were processed

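The authors deposited 1 table of FPKM per gene for the 12 libraries. Per the submitters' processing notes it involved TopHat2 2.0.13, SAMtools and Cufflinks 2.2.1 with mm10, and per the labels' protocols libraries were made with SOLiD protocols. Read length and strand use are not given in the sources used here. All columns matched a sample title, and 0 columns of other samples were found. One dermal sheath title has another prefix (DSL) and was kept in the population its labels give.

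From the deposited FPKM, log2(FPKM + 1) was fitted with limma 3.58.1 (R 4.3.3) over all 12 libraries with 4 population means and an empirical Bayes trend (8 residual and 4.61 prior degrees of freedom). Values listed at 0 entered as 0. Genes reaching 1 FPKM in 3 or more libraries, 12774 in all, entered the tests, which were two-sided with Benjamini-Hochberg adjustment over all of them and a threshold of 0.05. The code was tested on simulated data. Adjusted p-values in the text come from this fit. Depth is unknown because no counts were used, so no counting intervals are given.

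Members, gene lists and tests were chosen with earlier results of these data known. Text names all members, in each list up to 4 genes with the largest change that passed in dermal stem cells minus dermal papilla and up to 2 in each other contrast, the 5 genes most alike Tnnt1, Casq2 and Actc1, the reporter genes, troponin partners and defining markers; Pvalb, Mylpf, Trdn, Myh11, Des, Krt5, Krt10, Trp63 and other list genes outside this rule were chosen after their values were seen. One list gene was matched by an older symbol, and 1 gene that the rule names is not reported here.

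Same-numbered libraries of dermal stem cells and dermal papilla deviated together from their population means (correlations across genes of 0.306, 0.241 and 0.389 for numbers 1, 2 and 4). Over all 12 same-numbered pairs of libraries the correlation ran from -0.272 to 0.389, and 6 were above 0.1. Dermal sheath replicate 1 gave -0.272 with interfollicular dermis replicate 1 and 0.445 with interfollicular dermis replicate 6. The labels do not say what the numbers mark. The main fit holds no pairing, and the replicate block is given only as an alternative. Positions and promoters come from RefSeq on GRCm38.p6, and protein sequences were not used here. The alternatives, 18 in all, were 2 other scalings, a pseudocount of 0.1, no filter, fits of the compared libraries alone, a replicate block, and leaving out each library. When a library was left out, the set of tested genes stayed that of all 12 libraries.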

Additional observations from a re-analysis of the deposited data

How the results depend on the processing

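The calls of Tnnt3 held under all 18 alternatives, as did those of Tnni1. The filter admitted Tnnt3 through dermal stem cells and dermal papilla, and Tnni1 through interfollicular dermis alone. The fits without a library kept the set of genes that passed with all 12. Tnni1 thus stayed tested without an interfollicular dermis library, where the filter taken anew would have dropped it. The members called numbered 1 to 2 in dermal papilla minus dermal sheath, 2 to 4 in dermal papilla minus interfollicular dermis and 1 to 1 in dermal sheath minus interfollicular dermis when single libraries were left out. Under median-of-ratios scaling the median over all genes shifted by -0.18, 0.17, 0.12, 0.35, 0.29 and -0.05 (log2) for dermal stem cells minus papilla, sheath and interfollicular dermis, papilla minus sheath and interfollicular dermis, and sheath minus interfollicular dermis. Genes called higher and lower then numbered 514 and 451 (467 and 493 under quantile normalization), against 815 and 295, in stem cells minus papilla, 2815 and 2283, against 2502 and 3105, in stem cells minus sheath, 2852 and 2645 (2416 and 3152), against 2094 and 4271, in papilla minus sheath, and 2459 and 2204 (2195 and 2721), against 1746 and 3654, in papilla minus interfollicular dermis. The cause of the changes below was not tested. Stem cells minus papilla gave 512 genes and 6 striated genes in a fit of the compared libraries alone and 7 striated genes with a pseudocount of 0.1. Without a filter 11 striated genes passed in papilla minus interfollicular dermis and 0 in sheath minus interfollicular dermis, where 1 passed with compared libraries alone, with a pseudocount of 0.1 or with quantile normalization. With the replicate block, sheath minus interfollicular dermis gave 150 genes (289 without it) and 0 striated genes (2 without it); the block changed no member's call.

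Leaving out single libraries gave 515 to 1422 genes and 6 to 11 striated genes in stem cells minus papilla (515, 625 and 709 genes without stem cell replicates 1, 2 and 4), 4196 to 6083 and 14 to 17 in stem cells minus sheath, 3409 to 5296 and 13 to 16 in stem cells minus interfollicular dermis, 5112 to 6467 and 5 to 10 in papilla minus sheath, 4224 to 5331 and 4 to 9 in papilla minus interfollicular dermis, and 103 to 431 and 0 to 2 in sheath minus interfollicular dermis.

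Differences of members that did not pass changed sign as follows (log2). In papilla minus sheath, Tnnt2 was 0.081 with median-of-ratios scaling, and leaving out libraries gave -0.57 to 0.31 for Tnnt2, -0.72 to 0.071 for Casq2, -0.24 to 0.32 for Tnnc1, -0.29 to 0.012 for Tnni1 and -0.40 to 0.88 for Tnni2. In papilla minus interfollicular dermis, Tnnc1 was 0.044 with the replicate block and -0.61 to 0.0065 without single libraries, and Tnni2 was -0.080 with a pseudocount of 0.1 and -0.59 to 0.69 without single libraries. In sheath minus interfollicular dermis, Tnnc2 was -0.031 with median-of-ratios scaling, -0.11 with the block and -0.39 to 0.82 without single libraries, Tnni2 was 0.87 with the block and -0.55 to 0.29 without single libraries, Tnnt3 was -0.033 with the block and -0.021 to 0.15, and Tnnt1 -0.042 to 0.17 without single libraries. The number of reads behind members below 1 FPKM is unknown.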
